A study of Drosophila melanogaster with 12 samples.

Results

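The 7 genes described here are general markers of *Drosophila* neurons: *elav*, *fne*, *Rbp9*, *Appl*, *scrt*, *nerfin-1* and *jeb*. They were taken by their FlyBase symbols from the 15682 genes of the count files, and each symbol matched 1 gene identifier. The choice rests on what is known of them and on no cut of a measured value, but earlier results of these data were known. The libraries hold nuclear RNA from glia, so the levels of the 7 genes bear on how much RNA of neuronal genes these preparations carry. They also bear on whether that amount differed between the genotypes. Transcription of the 7 genes in glia cannot be told apart here from RNA of neuronal nuclei. GFP on the nuclear membrane marked the glial nuclei, which were pulled out of pooled eye-brain complexes of larvae at the wandering stage of the third instar, 4 libraries per genotype and 12 in all. All larvae carried the glial driver *repo*-GAL4 and the UAS-GFP-Msp300KASH transgene, so the enrichment follows *repo* activity. The wild-type larvae carried both over the balancer TM3, whereas the *nonstop* larvae were homozygous for the P-element allele P{PZ}*not02069* (with *ry506*) and the *sgf11* larvae for the piggyBac insertion PBac{RB}*CG13379e01308*, both without TM3. Effects of the mutations cannot be told apart here from those of the balancer or of the strain background. *nonstop* and *sgf11* encode subunits of the deubiquitinase module of the SAGA coactivator.

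The 3 RNA-binding members form the fly ELAV/Hu family. ELAV is a nuclear protein of postmitotic neurons that controls alternative splicing and polyadenylation of neuronal transcripts, and FNE and Rbp9 are its paralogs, with Rbp9 also known from the germline. *Appl* encodes the fly ortholog of the amyloid precursor protein, a transmembrane protein of neurons. *scrt* encodes a zinc finger repressor of the Snail family, and *nerfin-1* a zinc finger protein of young neurons that keeps them from returning to a neuroblast state. *jeb* encodes the secreted ligand of the receptor tyrosine kinase Alk, which photoreceptor axons release in the optic lobe.

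In the coordinates of the BDGP6 annotation the genes are spread over the genome. The authors counted on the older BDGP5 build, whose coordinates differ. *elav* (FBgn0260400) lies on chromosome X at 509235 to 523226 on the minus strand and *Appl* (FBgn0000108) on X at 530501 to 579044 on the plus strand, with 7274 bases between them. *fne* (FBgn0086675) is on X at 12917477 to 12950417, *Rbp9* (FBgn0010263) on 2L at 2954762 to 2968434, *scrt* (FBgn0004880) on 3L at 3983896 to 3994003, *nerfin-1* (FBgn0028999) on 3L at 909112 to 912319, and *jeb* (FBgn0086677) on 2R at 12085194 to 12119340. The genes differ in structure, from the single exon of *nerfin-1* over 3208 bases to *Appl*, where exons make up 13.1% of a span of 48544 bases. Since reads were counted over exons and without regard to strand, overlaps with other genes can affect which reads were counted for *elav* and *Rbp9*. Exons of *elav* overlap those of *arg* on the other strand by 673 bases and those of *lncRNA:enrr* on the same strand by 2994 bases, and exons of *Rbp9* overlap those of *Ts* by 142 bases. *lncRNA:enrr* has no entry of its own in the count files, so its reads cannot be told apart from those of *elav*.

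Each library held between 6913032 and 11459317 reads on annotated genes. Levels are given as CPM, counts per common library total after TMM scaling, and, where genes are compared with each other, as FPKM, which also divides by the exon length in kilobases. The glial markers that define the sample were present in each library: *repo*, the glial transcription factor gene, had a wild-type mean of 148 ± 11.5 CPM (SD, n = 4), and all 16 listed glial genes were above 1 CPM in all 12 libraries. Transcripts of the mutated genes were low in the matching mutants, with a log2 fold change of -1.45 for *not* in *nonstop* and -5.95 for *Sgf11* in *sgf11*, the latter of a gene nearly at 0 and therefore dependent on the prior count of the fit. The 4 libraries of a genotype are described as biological replicates.

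All 7 neuronal genes were detected in all 12 libraries, and all 7 passed the filter of over 1 CPM in at least 4 libraries. In wild-type nuclei their FPKM fell in the order *nerfin-1* (35.9 ± 3.98, SD, n = 4), *elav* (18.3 ± 2.10), *Appl* (14.5 ± 3.08), *fne* (13.6 ± 1.76), *scrt* (5.4026 ± 0.846), *jeb* (1.76 ± 0.630) and *Rbp9* (0.602 ± 0.0504). The ranges of mean ± SD overlapped for *elav* and *Appl* and for *Appl* and *fne*, and did not overlap for the other neighbours in this order. Over the 9476 tested genes with an exon length, the median FPKM was 6.12, so that 4 of the 7 genes lay above the typical gene of the glial nuclei. *nerfin-1* had 10.3% of these genes above it, *elav* 21.4%, *Appl* 27.1%, *fne* 28.7%, *scrt* 53.7%, *jeb* 78.8% and *Rbp9* 91.6%. *Rbp9* rested on 40 to 73 reads per library, against 1072 to 3193 for *elav*.

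**Figure D1:**
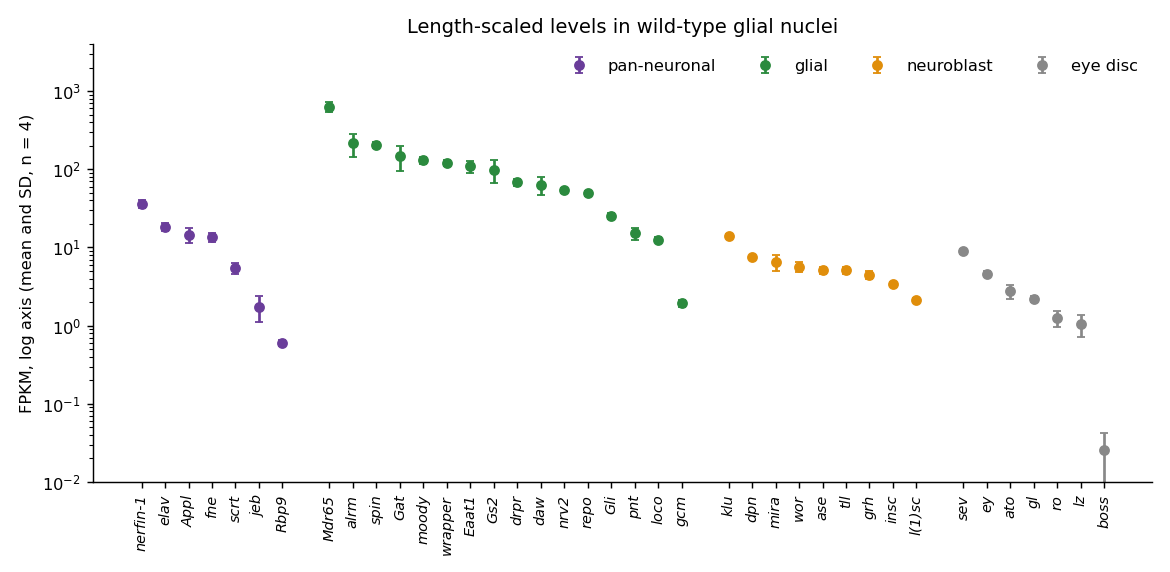
FPKM on a log axis (mean and SD of 4 wild-type libraries) of the 7 pan-neuronal genes and of marker genes of glia, neuroblasts and the eye disc, each set ordered by level. *nerfin-1*, the highest neuronal gene at 35.9, lies below *repo* at 49.4, and *Rbp9*, the lowest at 0.602, lies below all glial and neuroblast markers shown.

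How the neuronal genes compared with glial markers depended on the genes set against each other. The summed FPKM of the 7 genes was 83.8 to 96.1 per wild-type library, against 1837 to 2129 for 16 glial markers, a ratio of 3.94% to 5.23%. The glial sum is weighted towards a few genes, above all *Mdr65*, a transporter gene of the blood-brain barrier. A separate list of 17 neuronal effector genes had a summed FPKM of 192.6 to 242.6 in wild type. Set against a single glial gene, the ratio of *elav* to *repo* FPKM in wild type was 0.303, 0.357, 0.425 and 0.409 in replicates 1 to 4. As shares of all counts assigned to genes, the 7 genes took 0.0558% to 0.0761% in wild type, 0.0597% to 0.0854% in *nonstop* and 0.0499% to 0.0789% in *sgf11*. None of these values gives a share of neuronal nuclei, since no library of neurons or of unselected nuclei was analysed here. Neuroblast markers were also present, with a summed FPKM of 50.98 to 58.6 over 9 genes in wild type, as were eye disc markers, at 19.9 to 22.0 over 7 genes. The photoreceptor gene *boss* was near 0 (0.0765 CPM in wild type), while *sev* was at 72.8 ± 5.31 CPM.

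Of the 7 genes, 1 was called in *nonstop* and 1 in *sgf11* by edgeR's quasi-likelihood test, with p-values adjusted over all 9966 genes tested and a threshold of 0.01 on the FDR. In both comparisons this gene was *Appl*, which rose. Among all genes tested 35.7% were called in *nonstop* and 30.5% in *sgf11*, and 18.7% and 16.4% were called higher, so that 1 of 7 is no more than the background. The median log2 fold change of the 7 genes was 0.44 in *nonstop* and -0.02 in *sgf11*, beside 0.01 and 0.02 over all genes. The 2 comparisons share their wild-type libraries. Without an adjustment, 5 of the 7 genes in *nonstop* and 3 in *sgf11* had p under 0.05, each with a higher level in the mutant. Over all genes, 55.0% and 51.1% had p under 0.05, and 28.5% and 26.9% had it with a higher level. In bulk nuclei, more neuronal nuclei, more RNA per nucleus and transcription of these genes in glia cannot be told apart.

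**Figure D2:**
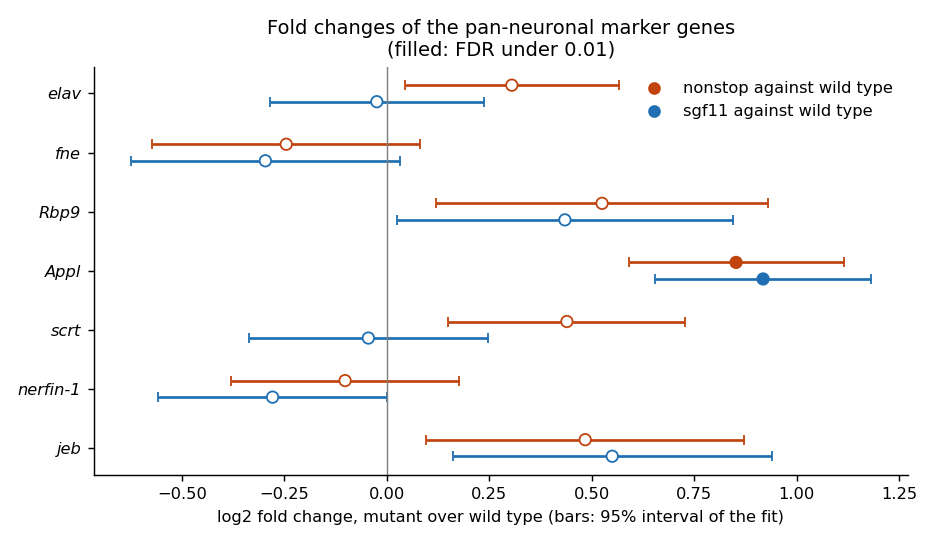
Log2 fold changes of the 7 genes in *nonstop* (orange) and *sgf11* (blue) over wild type, with the 95% interval of the quasi-likelihood fit; filled points passed an FDR of 0.01. *Appl* is filled in both mutants, at 0.85 and 0.92, and the other 6 genes are open in both.

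*Appl* was at 80.9, 85.1, 122 and 82.1 CPM in wild-type replicates 1 to 4. It was at 149.9, 153, 177 and 187 CPM in *nonstop* and at 181, 165, 175 and 178 CPM in *sgf11*. No mutant library reached down to the wild-type range, and the *nonstop* and *sgf11* libraries overlapped. The log2 fold change in *nonstop* was 0.85 with an SE of 0.12, a 1.80-fold level (FDR = 2.75e-05, edgeR's quasi-likelihood test). In *sgf11* it was 0.92 with an SE of 0.12, a 1.89-fold level (FDR = 1.66e-05). *Appl* was called under all alternatives tried, with log2 fold changes from 0.79 to 1.04 in *nonstop* and 0.87 to 1.10 in *sgf11* when 1 library was left out. Wild-type replicate 3 stood above the other 3 wild-type libraries, and without it the fold changes were 1.04 and 1.10.

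*elav* was at 167, 203, 222 and 195 CPM in wild-type replicates 1 to 4, at 228, 215, 256 and 271 CPM in *nonstop*, and at 216, 163, 169 and 225 CPM in *sgf11*. In *nonstop* 3 of 4 libraries lay above all wild-type libraries, whereas the *sgf11* libraries lay on both sides of the wild-type range. The log2 fold change of 0.31 in *nonstop* (SE 0.12, 95% interval 0.045 to 0.57, edgeR's quasi-likelihood FDR = 0.0494) did not pass the threshold of 0.01. In *sgf11* the value was -0.02 (SE 0.12, 95% interval -0.28 to 0.24, FDR = 0.891).

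The paralogs of *elav* had other values. *fne* was at 135, 141, 138 and 105 CPM in wild type, at 95.8, 93.9, 114.96 and 133 CPM in *nonstop* and at 123, 80.2, 87.7 and 131 CPM in *sgf11*. The groups overlapped, with 2 of 4 libraries of each mutant below the wild-type range, and edgeR's quasi-likelihood test called neither the log2 fold change of -0.25 in *nonstop* (SE 0.16, FDR = 0.204) nor that of -0.30 in *sgf11* (SE 0.16, FDR = 0.134). *Rbp9* was at 5.28, 4.72, 4.35 and 5.05 CPM in wild type, at 5.75, 6.39, 9.77 and 6.21 CPM in *nonstop* and at 6.74, 6.07, 7.625 and 5.82 CPM in *sgf11*. All 8 mutant libraries lay above the wild-type range, but edgeR's test called neither the log2 fold change of 0.53 in *nonstop* (SE 0.19, FDR = 0.0316) nor that of 0.43 in *sgf11* (SE 0.19, FDR = 0.0792). Without *nonstop* replicate 3, the library with 9.77 CPM, the value in *nonstop* was 0.32.

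The zinc finger genes differed in where they stood. *scrt* was at 48.1, 51.3, 57.6 and 39.2 CPM in wild type, at 60.7, 57.7, 68.7 and 78.5 CPM in *nonstop* and at 51.2, 42.8, 39.3 and 56.4 CPM in *sgf11*. All *nonstop* libraries lay above all wild-type and all *sgf11* libraries, the lowest narrowly (57.67 CPM against 57.60 in wild-type replicate 3), while *sgf11* overlapped wild type. The log2 fold change was 0.44 in *nonstop* (SE 0.14, FDR = 0.0134) and in *sgf11* -0.04 (SE 0.14, FDR = 0.817), and the direct comparison of *nonstop* with *sgf11* gave 0.48 (SE 0.14, FDR = 0.0599), all from edgeR's quasi-likelihood test and none called. *scrt* passed the threshold in *nonstop* with edgeR's exact test and without wild-type replicate 3 or *nonstop* replicate 2.

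*nerfin-1* was at 133, 110.4, 104 and 113 CPM in wild type, at 99.7, 92.8, 116 and 120.4 CPM in *nonstop* and at 116, 81.3, 76.8 and 105 CPM in *sgf11*. In each mutant 2 libraries lay below the wild-type range and 2 within it. The log2 fold changes in *nonstop* of -0.10 (SE 0.13, FDR = 0.548) and in *sgf11* of -0.28 (SE 0.13, FDR = 0.0985) were not called by edgeR's quasi-likelihood test. *scrt* and *nerfin-1* lie on chromosome arm 3L, which TM3 balances in the wild-type larvae.

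*jeb* was at 12.6, 16.8, 27.6 and 15.9 CPM in wild type, at 23.4, 24.5, 26.02 and 28.0 CPM in *nonstop* and at 21.8, 27.9, 27.3 and 30.2 CPM in *sgf11*. The mutant libraries lay above 3 of the wild-type libraries and overlapped wild-type replicate 3. By edgeR's quasi-likelihood test the log2 fold change in *nonstop* was 0.48 (SE 0.18, FDR = 0.0375) and in *sgf11* 0.55 (SE 0.18, FDR = 0.0224), neither of which was called. Without wild-type replicate 3 *jeb* had 0.79 in *nonstop* and 0.84 in *sgf11* and was called in both. With *scrt* also called in *nonstop* in this fit, the count of called genes among the 7 was 3 and 2. Of the 9966 genes tested, 3186 and 2730 were called in this fit. With all 12 libraries *jeb* was called in *nonstop* under 1 other choice of TMM factors (0.64).

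**Figure D3:**
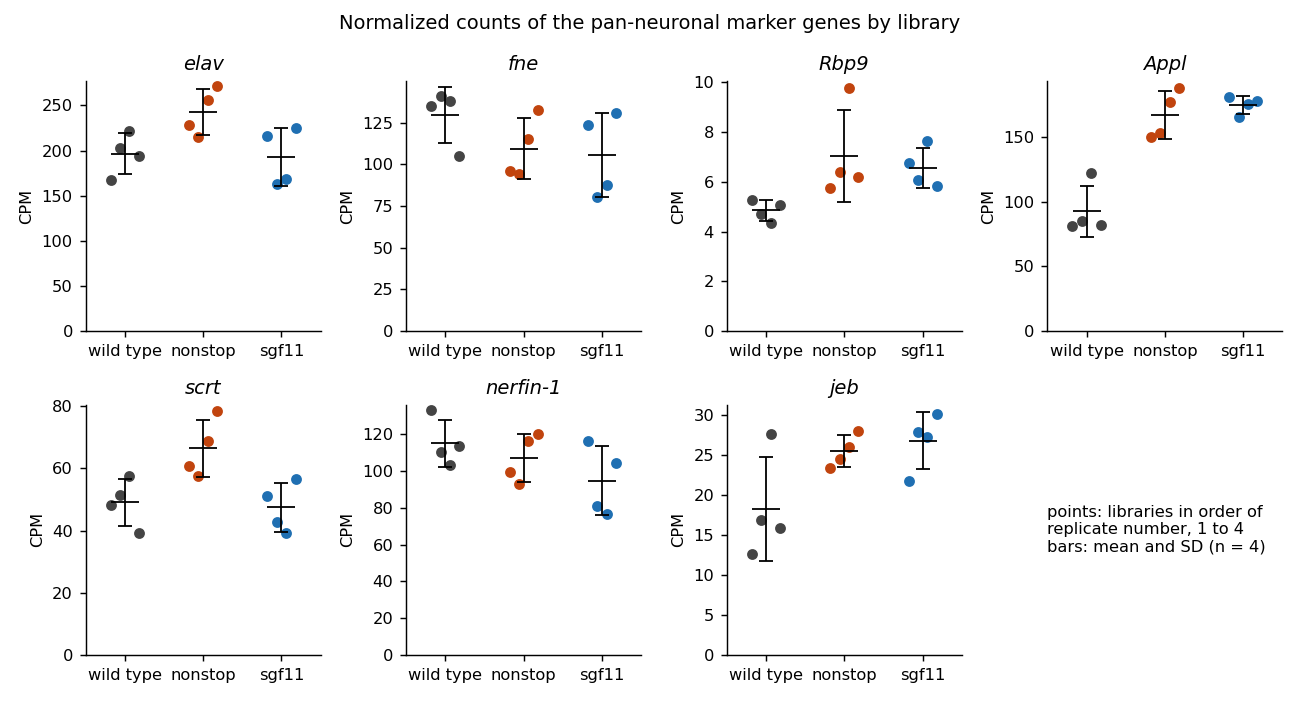
CPM of each of the 7 genes in all 12 libraries, in order of replicate number within a genotype, with the mean and SD of 4 libraries; each axis starts at 0. The 8 mutant points lie above the 4 wild-type points for *Appl* and *Rbp9*, and wild-type replicate 3 is the highest wild-type point for *elav*, *Appl*, *scrt* and *jeb*.

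By separation alone, 3 of the 7 genes (*Rbp9*, *Appl* and *scrt*) had *nonstop* libraries that did not overlap wild type, where 42.9% of all genes tested had this, and 2 of 7 (*Rbp9* and *Appl*) had *sgf11* libraries that did not overlap wild type, where 39.5% had this. Between the mutants none of the 7 genes was called by edgeR, by DESeq2 or by edgeR's exact test, where 2.11% of all genes were called by the first. The unadjusted p was under 0.05 for *scrt* and *elav*, both with the higher level in *nonstop*, and for 17.1% of all genes. The log2 difference between the mutants was 0.33 for *elav* (95% interval 0.07 to 0.59) and -0.07 for *Appl* (-0.33 to 0.19).

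The balance of *elav* against *repo* within a library avoids scaling between libraries. The FPKM ratio was 0.471, 0.427, 0.686 and 0.728 in *nonstop* and 0.566, 0.294, 0.368 and 0.549 in *sgf11*. Each *nonstop* library lay above each wild-type library, by a mean of 0.60 on the log2 scale (two-sided exact permutation test, p = 0.0286, the smallest value possible with 4 against 4, and 0.0571 adjusted over 2 comparisons). The *sgf11* libraries overlapped wild type, with a mean difference of 0.21 (exact permutation test, p = 0.486, adjusted 0.486). Neither passed 0.05 after adjustment. The *repo* level in *nonstop* was 121 CPM against 148 in wild type (log2 fold change -0.29, FDR = 0.0709 from edgeR's quasi-likelihood test), which was not called. With the sum of the 16 glial markers in place of *repo*, the difference was 0.05 in *nonstop* and -0.48 in *sgf11*. Over all genes tested, 35.7% were called in *nonstop* and 30.5% in *sgf11*. Glial markers did not move as 1 group, with 5 higher and 4 lower of 16 in *nonstop* and 4 higher and 0 lower in *sgf11*. These counts depended on single libraries: 4 of 16 were called in *nonstop* without wild-type replicate 2, 6 without wild-type replicate 1 or *nonstop* replicate 1, and 2 in *sgf11* without wild-type replicate 1. The *sgf11* count also depended on the test, with 9 of 16 called by DESeq2 and 7 by edgeR's exact test or with no filter on low counts. *Gat* (1.28 in both mutants) and *alrm* (1.11 and 1.42), genes of astrocyte-like glia, were the highest, and *moody* (-0.54 in *nonstop*) and *spin* (-0.60 in *nonstop*) the lowest. The call of *moody* was lost without any 1 of 5 libraries (wild-type replicates 1 and 2 and *nonstop* replicates 1, 3 and 4), at -0.55 to -0.48.

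Within each mutant genotype, *elav*, *fne*, *scrt* and *nerfin-1* were higher in the libraries where glial markers were lower, and the other 3 genes followed this in *nonstop* or not at all. In *sgf11*, replicates 1 and 4 were high and replicates 2 and 3 low for *elav*, *fne*, *scrt* and *nerfin-1*. *fne* deviated from its *sgf11* mean by 0.26 and 0.34 on the log2 scale in replicates 1 and 4 and by -0.36 and -0.23 in replicates 2 and 3. The mean deviation of the 16 glial markers had the opposite sign in these libraries, at -0.23 and -0.10 against 0.21 and 0.12. In *nonstop*, replicates 3 and 4 were the higher for *elav*, *fne*, *Appl*, *scrt*, *nerfin-1* and *jeb*, and glial markers deviated by -0.19 and -0.20 there and by 0.24 and 0.15 in replicates 1 and 2. *Rbp9* was high in replicate 3 (0.49) and not in replicate 4 (-0.14). *repo* itself was at 104 and 104 CPM in *nonstop* replicates 3 and 4 and at 136 and 141 CPM in replicates 1 and 2. In wild type, glial markers deviated by only -0.10 to 0.08, while *elav* deviated by -0.23 to 0.18 and *jeb* by -0.47 to 0.66. In wild-type replicate 1 both *elav* (-0.23) and glial markers (-0.10) were at their lowest, while *nerfin-1* (0.22) was at its highest. In *sgf11*, 3 of the 7 genes did not follow the division. *Appl* deviated by 0.05, -0.08, 0.01 and 0.03 in replicates 1 to 4, *Rbp9* by 0.04, -0.10, 0.22 and -0.16, and *jeb* by -0.29, 0.07, 0.04 and 0.18. Neuroblast markers deviated by 0.19, -0.28, -0.09 and 0.19 in *sgf11*, the same signs as *elav*. The part of differing glial enrichment in the fold changes was not tested.

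**Figure D4:**
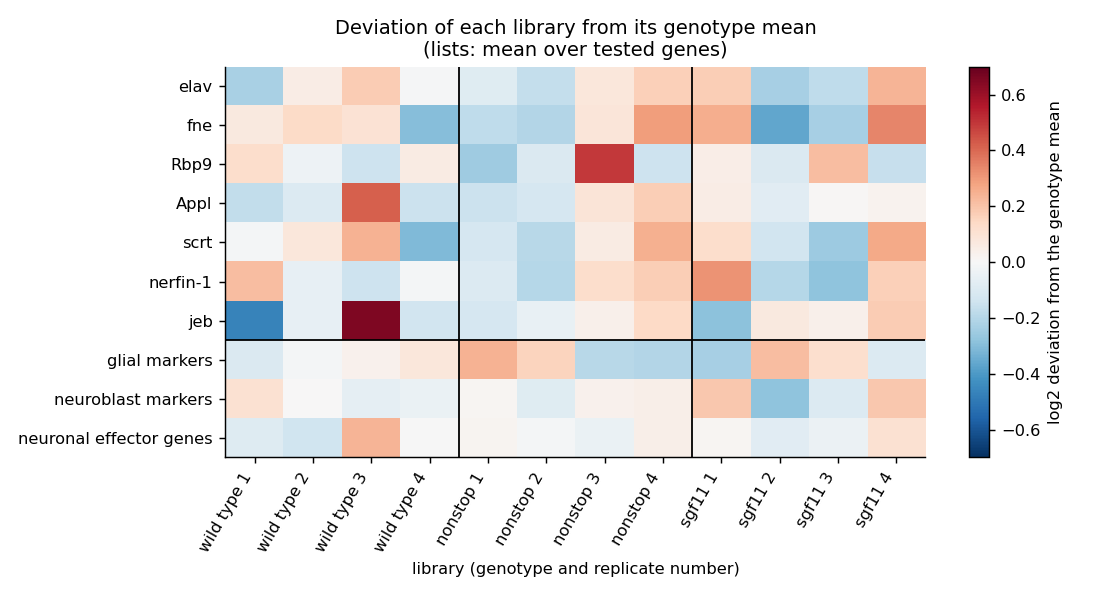
Log2 deviation of each library from the mean of its genotype for the 7 genes (rows above the line) and, as means over tested genes, for glial markers, neuroblast markers and neuronal effector genes (rows below); red is higher and blue lower. In *sgf11* the rows *elav*, *fne*, *scrt* and *nerfin-1* are red in replicates 1 and 4 and blue in 2 and 3, and the row of glial markers is the reverse.

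Over the 12 libraries the 7 genes fell into groups by likeness of their log2 CPM, given as a description, since the libraries share genotype, depth and scaling. *elav* and *scrt* were most alike (Pearson r = 0.89), followed by *Appl* and *jeb* (r = 0.87) and by *fne* and *nerfin-1* (r = 0.79), whereas *Appl* and *fne* had r = -0.32 and *nerfin-1* and *jeb* r = -0.55. Among all genes tested, those most like *elav* were *chn* (r = 0.97), *crol* (0.93) and *Spred* (0.92), and those most like *Appl* were *CG17493* (0.98), *eag* (0.97) and *l(2)41Ab* (0.97). The nearest to *jeb* were *tei* (0.94), *sNPF* (0.93) and *Ank2* (0.92), and to *scrt* *Reph* (0.93), *Hrb27C* (0.91) and *Eip93F* (0.90). For *fne* they were *CG10713* (0.96), *mid* (0.91) and *TwdlE* (0.91), for *nerfin-1* *tld* (0.94), *sob* (0.90) and *Iru* (0.90), and for *Rbp9* *lncRNA:CR43148* (0.92), *ash2* (0.92) and *slx1* (0.91).

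Lists of genes around the 7 are given beside the shares called over all genes, 35.7% in *nonstop* and 30.5% in *sgf11*. Most of the 17 tested neuronal effector genes act in synaptic release or transmitter use. Of the 17, 9 rose and 0 fell in *nonstop*, 9 rose and 1 fell in *sgf11*, and the same 9 rose in both. *Snap25*, a SNARE gene of vesicle fusion, had a wild-type mean of 12.7 CPM and rose in both mutants (log2 fold changes 1.78 and 1.76), *Gad1*, the enzyme gene of GABA synthesis, had 1.30 and 1.09, and *VGlut*, the glutamate transporter gene, had 0.33 and 0.46. *CadN*, the neuronal cadherin gene, fell in *sgf11* (-0.45). The call of *VGlut* in *nonstop* was lost on leaving out any 1 of 7 libraries (all but *nonstop* replicate 2), with 0.30 to 0.37, and that of *CadN* on leaving out any 1 of 6 (all but replicate 1 of wild type and of *sgf11*), with -0.48 to -0.30. Without TMM factors 6 of the 17 were called in *nonstop* and 5 in *sgf11*. The median was 0.33 and 0.46 over these genes, beside 0.01 and 0.02 over all genes.

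Of 10 tested genes of the Jeb receptor and its kinase pathway, 2 rose and 2 fell in each mutant, a share near that over all genes. Without *sgf11* replicate 3 the *sgf11* count was 2. *Alk*, the receptor of Jeb, rose from a wild-type mean of 49.8 CPM to a mean of 90.04 in *nonstop* (log2 fold change 0.85, FDR = 2.58e-06 from edgeR's quasi-likelihood test) and 73.0 in *sgf11* (0.55, FDR = 2.82e-04). *rl*, the ERK kinase gene, had the highest fold changes of the list (1.55 and 1.45). *Ras85D*, the Ras gene, fell in both mutants (-0.79 and -0.53), *Dsor1*, the MEK gene, fell in *nonstop* (-0.51) and *drk*, the adaptor gene upstream of Ras, fell in *sgf11* (-0.37). *Ras85D* lost its call in *sgf11* without wild-type replicate 1 or *sgf11* replicate 3 or 4 (-0.52 to -0.38), and *Dsor1* in *nonstop* without wild-type replicate 2 (-0.45).

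Among 9 tested genes that process or bind the Appl protein, none rose, 3 fell in *nonstop* and 1 in *sgf11*, where 17.0% and 14.1% of all genes fell. *kuz*, the alpha-secretase gene, fell in both mutants (log2 fold changes -0.87, FDR = 8.87e-06, and -0.71, FDR = 8.74e-05, from edgeR's quasi-likelihood test), and the gamma-secretase subunit genes *aph-1* (-0.83) and *nct* (-0.49) fell in *nonstop*. *Bace*, the beta-secretase gene, failed the filter on low counts and was not tested. Of 6 transcripts that ELAV is known to regulate, 2 rose and 1 fell in both mutants. Over all genes, 18.7% rose and 17.0% fell in *nonstop*, and 16.4% rose and 14.1% fell in *sgf11*. The *sgf11* count was 2 rather than 3 with library size alone or with 1 other choice of TMM factors. *ewg*, whose splicing ELAV controls, had 0.60 and 0.44, *mei-P26* had 1.02 and 0.76, and *arm*, the beta-catenin gene, had -0.38 and -0.39. The counts are of genes and say nothing of splice forms.

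**Figure D5:**
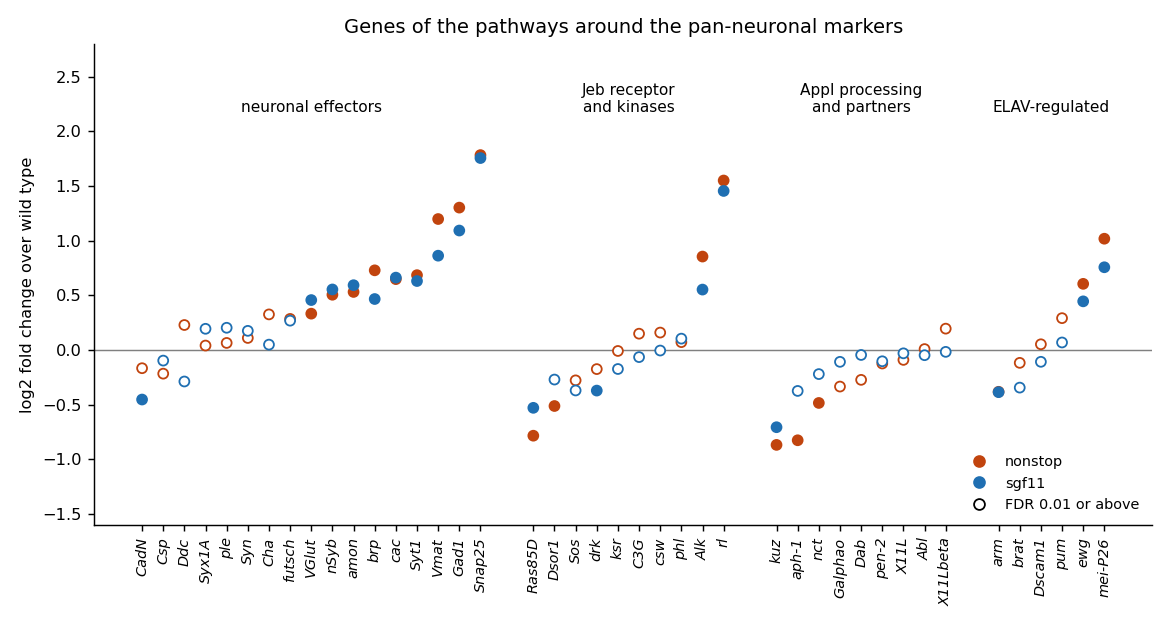
Log2 fold changes over wild type of the tested genes in 4 lists around the pan-neuronal markers, in *nonstop* (orange) and *sgf11* (blue), ordered by level of change within a list; filled points passed an FDR of 0.01. In the list of neuronal effectors 9 genes are filled above 0 in both mutants, up to *Snap25* at 1.78, and in the list of Appl processing no gene is filled above 0.

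Of 5 tested factors listed for neuron fate, *onecut* rose in *nonstop* (log2 fold change 0.42, FDR = 0.00621 from edgeR's quasi-likelihood test), and none was called in *sgf11*. This call was lost without any 1 of 5 libraries (wild-type replicates 1, 2 and 4 and *nonstop* replicates 3 and 4), at 0.33 to 0.45, and also with library size alone or with no filter on low counts. None of the 3 tested relatives of *scrt* was called, with *CG12605* at 0.49 (FDR = 0.0215) in *nonstop* and *wor*, a neuroblast member of the Snail family, at -0.59 (FDR = 0.0126), and *nerfin-2* failed the filter. This absence of calls depended on the fit, since in *nonstop* 1 of the 3 was called by DESeq2, with library size alone or with no filter, and 2 by edgeR's exact test or in fits of only the groups compared. Of 9 neuroblast markers, 3 fell in *nonstop* and 5 in *sgf11*, where 17.0% and 14.1% of all genes fell, and none rose. *insc*, named after its values were seen, had 0.24 (FDR = 0.313) in *nonstop* and 0.62 (FDR = 0.0114) in *sgf11* by edgeR's quasi-likelihood test. The count in *sgf11* was 3 without wild-type replicate 1 or 3 or *sgf11* replicate 2, and that in *nonstop* was 5 with edgeR's exact test. *ase* lost its *sgf11* call without any 1 of 8 libraries (all wild-type libraries, *nonstop* replicate 1 and *sgf11* replicates 1 to 3, -0.69 to -0.49) and *dpn* without any 1 of 4 (wild-type replicates 1 and 3 and *sgf11* replicates 1 and 2, -0.59 to -0.53). The summed FPKM was 38.1 to 42.5 in *nonstop* and 32.1 to 40.6 in *sgf11*, below the wild-type range. *mira*, which sorts fate determinants in neuroblast division, had -0.80 and -1.16, and *tll*, an optic lobe progenitor factor gene, had -1.02 and -1.21. *ato*, the proneural gene of photoreceptors, fell in *sgf11* (-1.26). The call of *mira* in *nonstop* was lost without wild-type replicate 1 (-0.64), and that of *ato* without wild-type replicate 1 or 4 or *sgf11* replicate 2 or 3 (-1.19 to -1.15).

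The study examined 12 genes of neurons and progenitors, which include *elav*, *Appl* and *jeb*. Of the 11 that were tested, 3 rose and 3 fell in *nonstop*, where 18.7% of all genes rose and 17.0% fell. In *sgf11*, 2 of the 11 rose and 4 fell, where 16.4% and 14.1% of all genes did. Those that rose in both were *Appl* and *Alk*, and those that fell in both were *svp* (-0.94 and -0.91), *dac* (-0.56 and -0.80) and *erm* (-0.64 and -0.68). In its wild-type glial samples against the central nervous system, the paper found *elav*, *Appl* and *jeb* reduced. It reads this as less contaminating neuronal RNA. The paper calls the comparison a rough estimate, since it set nuclear RNA against total cellular RNA. Not all of the 12 are specific to neurons. The paper found *svp* enriched in its glial samples over the central nervous system and proposes that glia might express it. It also cites expression of *pdm3* in perineurial glia and describes *gcm2* as a gene of glial and neuronal progenitors. *erm* was named after its values were seen, and *dac* lost its call in *nonstop* without wild-type replicate 1, 2 or 3 or *nonstop* replicate 2 (-0.54 to -0.48). Markers of other tissues were low: summed FPKM was 5.34 to 7.36 for 6 hemocyte genes and 1.63 to 12.3 for 4 muscle genes in wild type. Fat body genes, at 16.1 to 35.9 in wild type, were 9.13 to 15.5 in *nonstop* and 20.9 to 46.9 in *sgf11*, where *Lsp1alpha*, *Lsp1beta* and *Lsp2*, larval serum protein genes, rose by log2 fold changes of 1.37, 1.24 and 1.16, and *Fbp1* fell in both mutants (-4.27 and -2.36). Without *sgf11* replicate 3, *Lsp1alpha* (1.01) and *Lsp2* (1.01) lost their calls, and *Lsp1alpha* also without wild-type replicate 2 or 3 (1.21 and 1.28).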

How the data were processed

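RNA-seq was made by the authors from nuclear RNA of affinity-enriched glial nuclei, with 4 libraries per genotype. Per the labels and the study's methods, the authors trimmed paired reads with Trimmomatic 0.32, aligned them to BDGP5 with TopHat2 2.0.13 and Bowtie2 2.2.4, and counted exon reads per gene with HTSeq 0.6.1 in union mode, not by strand. The deposited values are whole read counts. The deposited edgeR tables hold the authors' own comparisons (fold change, mean expression, p-value and FDR) and were not used. Entries naming no gene (96.1 to 96.7% of all entries) were left out of library sizes. Intronic reads are not in the counts.

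The tests used edgeR 4.0.16 under R 4.3.3, and DESeq2 1.42.0 as an alternative. Python 3.11.15 was used for the tables and plots. A gene was kept where at least 4 of the 12 libraries exceeded 1 CPM (9966 genes), and counts were scaled by TMM. All 12 libraries entered a single model, from which each pair of genotypes was compared by the quasi-likelihood test of edgeR. P-values were adjusted after Benjamini and Hochberg across the genes tested, and an FDR below 0.01 was called. Fold changes and SE are those of the fit, with SE taken from the fold change and its F statistic. FPKM uses exon lengths of the BDGP6 annotation (Ensembl release 115). The tests were checked on simulated counts.

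The 7 genes, the other lists and the tests were chosen with earlier results of these data known. Listed symbols were matched to identifiers by symbol or, where no gene has the symbol, by synonym, and 11 listed names were left unmatched and not used here. Named were the 7 genes with each library, the 3 genes most alike each, the 2 highest and 2 lowest called genes per list, and *repo*, *not* and *Sgf11*; other genes (*Bace*, *boss*, *sev*, *CG12605*, *wor*, *nerfin-2*, *drk*, *erm*, *insc*, *Mdr65*) were named after their values were seen. Alternatives were other scalings, other tests, no filter, fits of 2 groups, an FDR of 0.05, a replicate block and each library left out.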

Additional observations from a re-analysis of the deposited data

Results flagged for a closer look

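Among 27 sets of 4 libraries screened for a library far from the others, 2 had one, where chance gives about 1 in 20 sets. *Rbp9* in *nonstop* was at 9.775 CPM in replicate 3, against 5.75 to 6.39 in the other libraries of this genotype. *Appl* in wild type was at 121.9 CPM in replicate 3, against 80.9 to 85.1 in the others. The gap to the nearest library was 0.84 and 0.90 of the whole range. In *nonstop* replicate 3 the *Rbp9* value rests on 71 reads.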

How the results depend on the processing

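*Appl* was called in both mutants under each alternative run, and none of the 7 genes was called between the mutants under any. The number called in *nonstop* was 4 (*elav*, *jeb* and *scrt* besides *Appl*) with TMM factors from only the 3633 genes that pass 1 CPM when entries naming no gene count towards library totals. It was 2 with edgeR's exact test, 5 at an FDR under 0.05, and 1 to 3 with 1 library left out. In *sgf11* it was 2 with those TMM factors, 2 at an FDR under 0.05, and 1 to 2 with 1 library left out. Over the 9966 genes tested, *nonstop* had 3473 called with those TMM factors, 3838 with edgeR's exact test and 4884 at an FDR under 0.05. With 1 library left out its range was 2931 to 3553. Over all genes in *sgf11*, 3035 were called with those factors, 4407 at an FDR under 0.05 and 2515 to 3091 with 1 library left out. With those factors the median log2 fold change over all genes is higher by 0.146 for *nonstop* and by 0.123 for *sgf11*. Under them *elav* (0.11) and *scrt* (0.086) in *sgf11* and *nerfin-1* (0.048) in *nonstop* changed sign, all within their error. Between the mutants *fne* was -0.037 with library size alone.

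With 1 library left out, log2 fold changes that changed sign ranged from -0.10 to 0.057 for *elav* and -0.13 to 0.060 for *scrt* in *sgf11*. Between the mutants they ranged from -0.059 to 0.185 for *fne*, -0.087 to 0.17 for *Rbp9* and -0.14 to 0.017 for *jeb*. In *nonstop* they were -0.53 to 0.012 for *Lsp2*, -0.43 to 0.042 for *Lsp1beta* and -0.44 to 0.10 for *Lsp1alpha*, which were not called. The *elav* to *repo* difference in *sgf11* turned to -0.48 with the glial sum as denominator. Genes called between the mutants numbered 351 with edgeR's exact test, 335 with DESeq2, 386 at an FDR under 0.05 and 136 to 221 with 1 library left out, against 210. The causes were not tested.

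The replicate numbers did not pair the libraries, with correlations of deviations between -0.08 and 0.12 for libraries of the same number. With the replicate number as a block, 1 of the 7 genes was called in *nonstop* and 2 in *sgf11*, where *jeb* (0.58) was added. Under the block *onecut* lost its call in *nonstop*, and 1 of the 3 tested relatives of *scrt* was called in each mutant. With the TMM factors above, 7 of 16 glial markers and 2 of 10 genes of the Jeb pathway were called in *sgf11*, and 1 relative of *scrt* in *nonstop*. Depth limits *Rbp9* most, at 40 to 73 reads per library.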

Other observations

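The ratio of *Appl* to *elav* within a library was computed after the values were seen, and it depends on no scaling between libraries. It was 0.484, 0.419, 0.550 and 0.422 in CPM in wild-type replicates 1 to 4, 0.656, 0.712, 0.692 and 0.691 in *nonstop* and 0.839, 1.015, 1.039 and 0.789 in *sgf11*. The 3 genotypes did not overlap, and within *sgf11* the ratio was highest in replicates 2 and 3, the libraries with the highest sums of glial markers (3186 and 2897 FPKM). No test was run on it. *elav* and *Appl* lie 7274 bases apart on chromosome X, transcribed away from each other. *CG4293* is annotated between them, and *arg* lies partly between them and overlaps exons of *elav*.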
